A study of Homo sapiens with 2 samples.

Results

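The proteasome genes described here were the 50 protein-coding genes, of 20098 in the GENCODE annotation on hg19 coordinates, whose symbol starts with PSMA, PSMB, PSMC, PSMD, PSME, PSMF or PSMG followed by a digit. Promoters were taken as 1000 bp on each side of every annotated transcription start site (TSS), and a gene was counted as bound when at least 1 base of a deposited peak fell there. The measurement was chromatin immunoprecipitation followed by sequencing (ChIP-seq) in wild-type A673 cells, an established Ewing sarcoma line, with 1 library of chromatin precipitated for MYBL2 and 1 input library, sheared chromatin that was not precipitated. The sample labels name an antibody against MYBL2, a MYB family transcription factor, and the study's methods describe it as one against the phosphorylated, activated protein. Both libraries came from 1 line and there was no replicate, so no test between the libraries was made. Every interval given here covers the counting error of the precipitated library only. Counting error of the input, from which the background comes, is not in it, so the intervals are too narrow for comparing genes strictly. RNA levels of these genes were not analysed here.

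The proteasome is the protease that degrades most ubiquitin-tagged proteins of the cell. Its barrel-shaped core is built from rings of alpha subunits (PSMA), which gate the channel, and rings of beta subunits (PSMB), of which PSMB5, PSMB6 and PSMB7 carry the catalytic sites, while the regulatory particle uses ATPases (PSMC) and non-ATPase subunits (PSMD) to recognise, unfold and deubiquitinate substrates. In immune cells and after interferon the catalytic subunits are exchanged for PSMB8, PSMB9 and PSMB10, thymic epithelium uses PSMB11, and male germ cells replace the alpha subunit PSMA7 by PSMA8.

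Of the 50 genes, 46 (92%) had a MYBL2 peak at the promoter, against 59.4% of all protein-coding genes (11941 of 20098). The 46 comprised all 43 genes of constitutive subunits and of cofactors, namely 7 alpha subunits, 7 beta subunits, 6 ATPases, 14 genes of the non-ATPase (PSMD) series, 4 activators (PSME), the inhibitor PSMF1 and 4 assembly chaperones (PSMG). The cofactors are not all constitutive, as the activators PSME1 and PSME2 are interferon-induced. The 46 further included the immune subunit PSMB10 and 2 genes that match by symbol but belong to none of these classes, the recombination factor PSMC3IP and PSME3IP1, a partner of the activator PSME3. The 4 genes without a listed promoter peak were the immune subunits PSMB8 and PSMB9, the thymic PSMB11 and the testis PSMA8.

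The sequences at the contrast of constitutive with tissue-restricted core subunits show where the strongest signal lay and what the unbound promoters hold. For each constitutive catalytic gene and for PSMB10, the 101 bases centred on the summit of the best promoter peak are given 5′ to 3′ on the strand of the gene from the GRCh37 assembly (hg19 coordinates). Capitals mark letters that match 1 of the 9 motifs searched below.
PSMB5 (chr14:23504068-23504168, minus strand): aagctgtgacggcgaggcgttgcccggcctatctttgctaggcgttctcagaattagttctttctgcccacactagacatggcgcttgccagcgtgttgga
PSMB6 (chr17:4699381-4699481, plus strand): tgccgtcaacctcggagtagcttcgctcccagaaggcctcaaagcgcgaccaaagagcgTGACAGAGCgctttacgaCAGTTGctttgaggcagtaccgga
PSMB7 (chr9:127177677-127177777, minus strand): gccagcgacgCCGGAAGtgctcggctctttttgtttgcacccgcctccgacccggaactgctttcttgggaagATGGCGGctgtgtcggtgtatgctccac
PSMB10 (chr16:67969833-67969933, minus strand): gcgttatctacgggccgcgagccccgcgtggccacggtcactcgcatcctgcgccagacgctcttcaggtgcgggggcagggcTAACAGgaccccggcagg
The window of PSMB6 held an antioxidant element (TGACNNNGC) and, on the minus strand, a MYB site (CAACNG). The window of PSMB7 held an ETS core (CCGGAAG) and a YY1 core (ATGGCGG), that of PSMB10 a MYB site (TAACNG), and that of PSMB5 none of the 9 motifs.

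For the genes without a promoter peak there was no summit, so the 101 bases that end at the canonical TSS are shown in their place, from the same assembly and on the strand of the gene.
PSMB8 (chr6:32811824-32811924, minus strand): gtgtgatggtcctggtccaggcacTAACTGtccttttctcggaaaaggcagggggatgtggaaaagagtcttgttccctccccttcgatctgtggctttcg
PSMB9 (chr6:32821869-32821969, plus strand): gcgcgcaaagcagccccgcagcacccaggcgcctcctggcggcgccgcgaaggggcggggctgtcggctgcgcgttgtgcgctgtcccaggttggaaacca
PSMA8 (chr18:23713733-23713833, plus strand): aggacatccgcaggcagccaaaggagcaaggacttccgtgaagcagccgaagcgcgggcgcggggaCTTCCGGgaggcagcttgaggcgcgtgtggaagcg
PSMB11 (chr14:23511321-23511421, plus strand): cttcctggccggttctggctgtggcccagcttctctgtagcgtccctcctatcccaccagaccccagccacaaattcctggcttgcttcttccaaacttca
The stretch upstream of PSMB8 held the letters of a MYB site and that of PSMA8 an ETS core on the minus strand. No match in a window says only that these letters are not in it.

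The strength of a peak is given on 2 scales. Fold enrichment is the authors' linear ratio of the ChIP signal at the summit to the local background expected from the input, and pileup is the whole number of ChIP fragments over the summit, recovered from the deposited values. Over the 46 bound proteasome genes the fold enrichment of the best promoter peak ran from 5.62 to 33.0 with a median of 10.0, and its pileup had a median of 54 fragments (24 to 197). Over all 11941 bound protein-coding genes the medians were 8.67 and 43 fragments. The best peak of 34 of the 46 lay above the all-gene median of fold enrichment. Of the 50 genes 46 (92%) had a promoter peak with a fold enrichment of at least 5, against 49.6% of all protein-coding genes. The same 46 had a peak directly over a TSS, against 53.9% of all protein-coding genes. Among bound genes only, all 46 proteasome genes met each condition, and of all 11941 bound protein-coding genes 9970 and 10834 did.

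**Figure D1:**
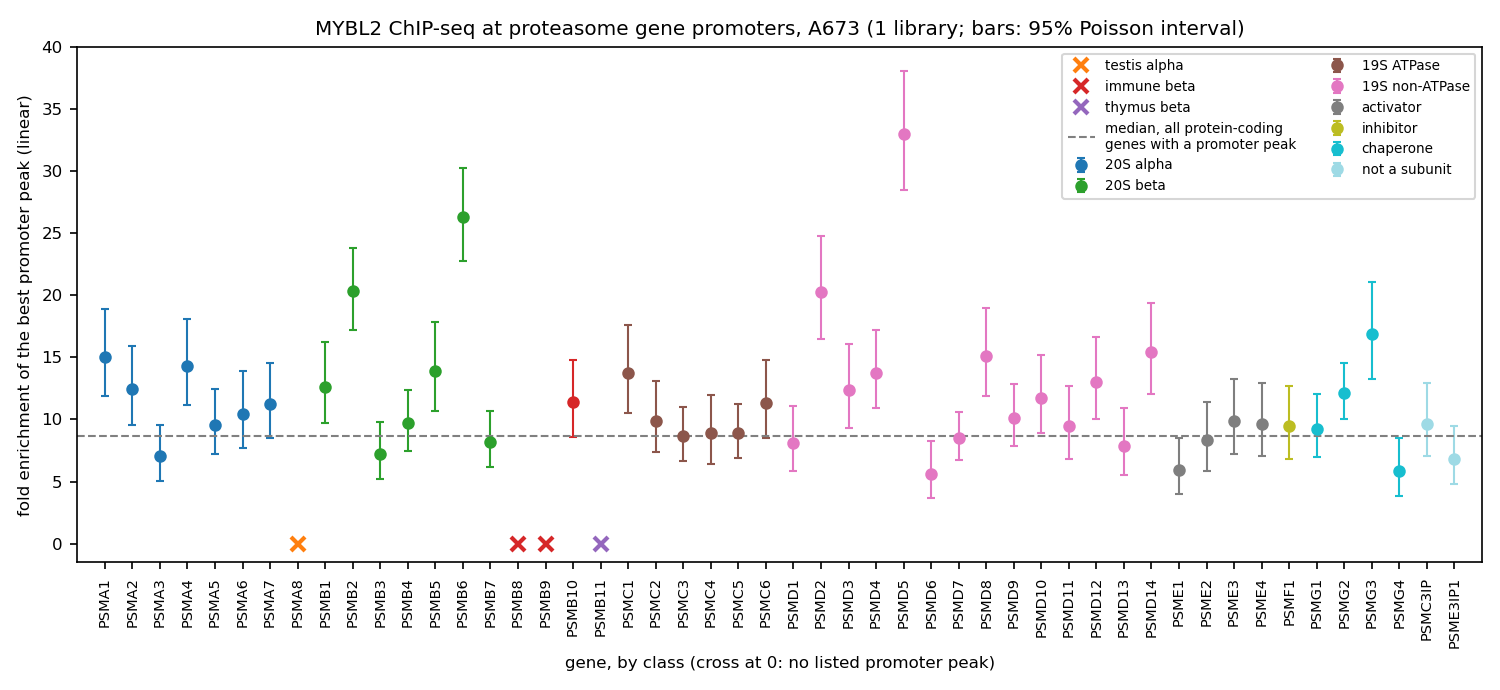
Fold enrichment of the best promoter peak (linear axis) for each of the 50 genes, ordered by class, with 95% exact Poisson intervals of the pileup in 1 library. Crosses at 0 are the 4 genes without a listed promoter peak, and the dashed line is the median of 8.67 over all bound protein-coding genes. PSMD5 at 33.0 and PSMB6 at 26.3 stand highest and PSMD6 at 5.62 lowest.

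Promoters rich in CpG were bound more widely in this list as a whole, and most proteasome promoters are of that kind. With an observed/expected CpG ratio of at least 0.6 within 500 bp of the outermost TSS taken as CpG-rich, 79.1% of all CpG-rich protein-coding genes were bound, against 30.3% of the others. Among the proteasome genes 42 were CpG-rich, of which 40 (95.2%) were bound and PSMB9 and PSMA8 were not. Of the 8 others 6 were bound, and PSMB8 and PSMB11 were not. The class of single genes depended on the TSS used, since PSMF1 had a ratio of 0.229 at the outermost and 0.809 at the canonical TSS, where its peak lay, and PSMG3 and PSMD6 also passed 0.6 there. Set at the canonical TSS, the class again held 42 proteasome genes of which all but PSMB9 (0.695) and PSMA8 (0.686) were bound, against 78.9% of all CpG-rich protein-coding genes, and the 8 others were PSMA6, PSMB5, PSMB10, PSMC2, PSMC6 and PSME2, which were bound, and PSMB8 (0.5997) and PSMB11 (0.316), which were not. The part of CpG content in the difference between the groups was not tested.

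The 3 catalytic subunits of the constitutive core all had a peak at the start of the gene, of unequal strength. PSMB6, the caspase-like subunit, had a peak at chr17:4699126-4700233 with a fold enrichment of 26.3 (95% interval 22.8 to 30.2) and 197 fragments, the highest pileup among the 46 genes and above that of 99.3% of all bound genes. PSMB5, the chymotrypsin-like subunit and main target of proteasome inhibitors used in the clinic, had a fold enrichment of 13.9 (10.7 to 17.8) and 61 fragments at chr14:23503082-23504751. PSMB7, the trypsin-like subunit, had 8.18 (6.13 to 10.7) and 51 fragments at chr9:127177318-127177865. The interval of PSMB6 lay above the other two, whereas those of PSMB5 and PSMB7 met at their ends. The summits lay 9 bp upstream of the nearest TSS for PSMB5, 8 bp for PSMB6 and 4 bp for PSMB7.

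Of the 3 immune counterparts, PSMB10, which takes the place of PSMB7, was bound. The peak also lay in the promoter window of the overlapping annotated gene ENSG00000261884, so it cannot be assigned to PSMB10 alone. This best peak at chr16:67969207-67970726 had a fold enrichment of 11.4 (8.62 to 14.8) and 54 fragments, within the range of the constitutive beta subunits (7.24 to 26.3). The position differed from theirs, since the peak started 27 bp downstream of the canonical TSS and its summit lay 870 bp inside the gene, in a coding exon and 5 bp from the start of a shorter annotated transcript. A weaker peak of 13 fragments and a fold enrichment of 3.0 had its summit 412 bp upstream of the canonical TSS.

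PSMB8 and PSMB9, which take the places of PSMB5 and PSMB6, lie close together on chromosome 6 with the peptide transporter genes TAP1 and TAP2. TAP1 lies between PSMB8 and the canonical start of PSMB9. No listed peak touched either gene or its promoter window. The nearest peak for both was that over the start of TAP2 at chr6:32806357-32806613, with a fold enrichment of 4.72 (2.97 to 7.16) and 20 fragments. It lay 5099 bp from the nearest TSS of PSMB8 and 5300 bp from that of PSMB9, an alternative start. No peak lay within 8 kb of the canonical TSS of PSMB9. The surrounding region was not empty of peaks. Between 29 and 34 Mb chromosome 6 held 55 peaks per Mb, against 19.7 per Mb on the rest of the chromosome. The stretch is also dense in genes, and these peak densities were not scaled by the number of genes. Of the 185 protein-coding genes in this stretch 56.2% were bound, against 64.7% of the 863 on the rest of the chromosome. Within 500 kb of the PSMB8 start 17 of 38 protein-coding genes (44.7%) were bound, against 59.4% of all protein-coding genes. Of the 16 CpG-rich ones there 87.5% were bound, all but PSMB9 and TAP1, against 79.1% of all CpG-rich protein-coding genes.

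A missing peak is not a measured 0. Where the background was at its lowest, 3.45 fragments, the weakest listed peak had a pileup of 11 fragments and a fold enrichment of 2.70, so signal under that level would not have been listed. All best peaks of the 46 bound genes were at least 24 fragments high. Signal at PSMB8, PSMB9, PSMB11 and PSMA8 under the listing limit could not be measured from the list. Numbering in the names of the deposited peaks ended at 66964 with 10 numbers missing, and whether any missing peak lay at these genes was not examined.

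The 2 remaining restricted subunits had no peak within several kilobases. PSMA8 had its nearest peak 42660 bp away, at the promoter of SS18 with a fold enrichment of 10.8, whereas PSMA7, the subunit it replaces, had a fold enrichment of 11.2 (8.48 to 14.6) and 54 fragments, with the summit 5 bp from the TSS. Both have CpG-rich promoters, with ratios of 0.707 for PSMA8 and 1.05 for PSMA7. PSMB11, whose CpG ratio was 0.316, lies close to PSMB5, and the peak nearest to it, 6670 bp away, was the one at the PSMB5 promoter.

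**Figure D2:**
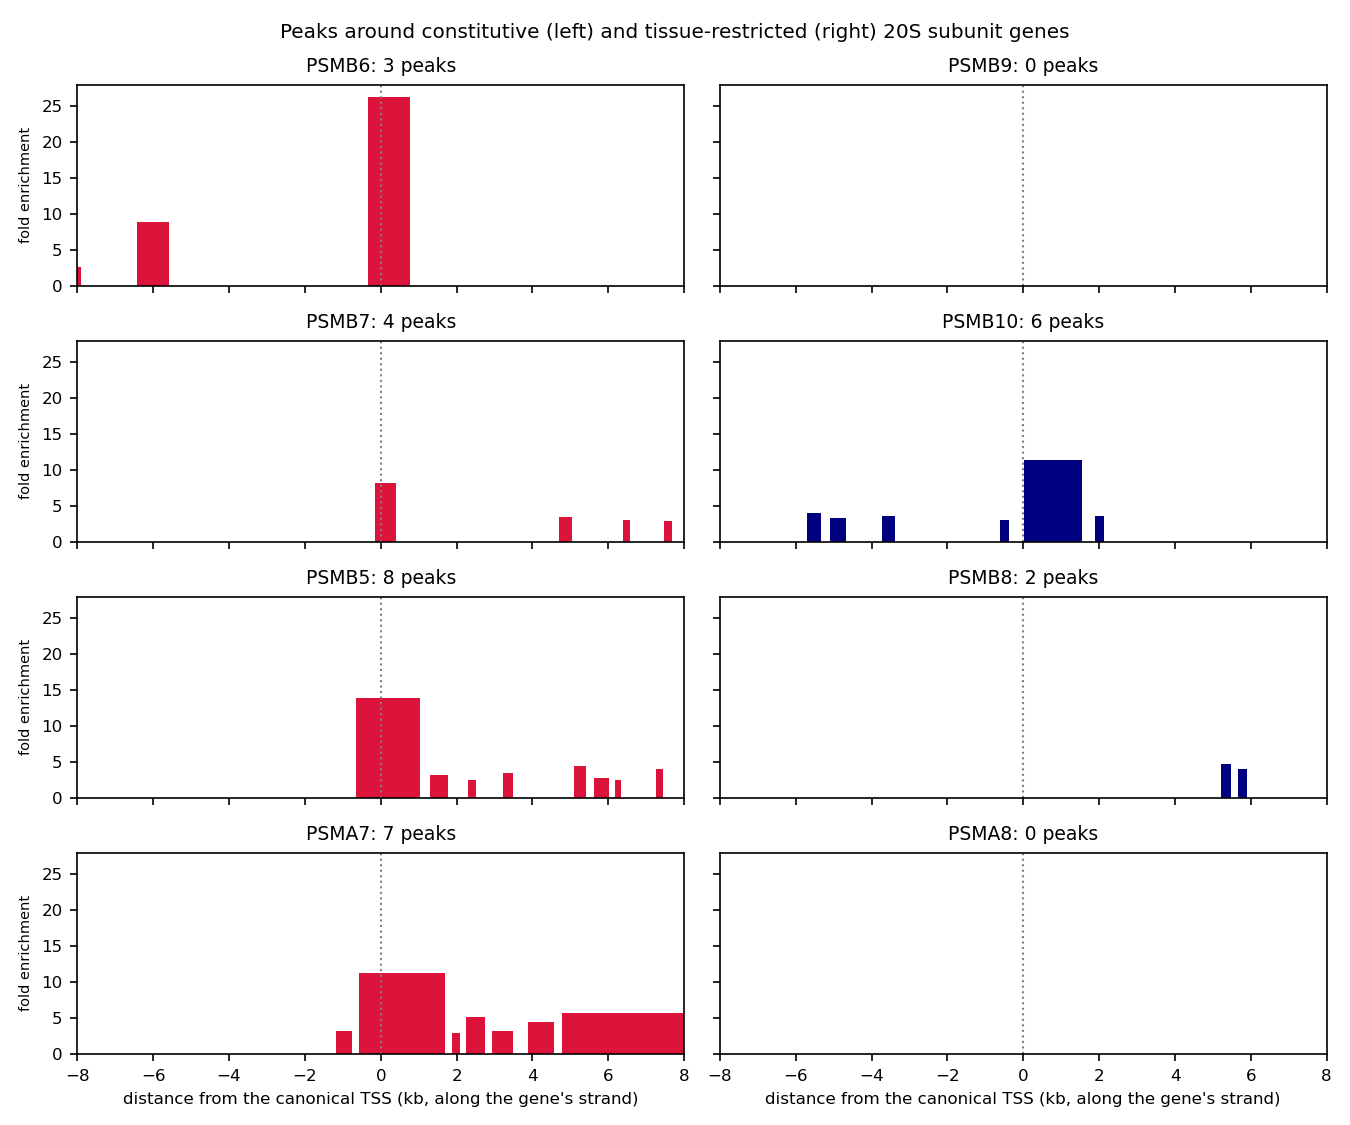
Listed peaks within 8 kb of the canonical TSS (dotted line), with distance in kb along the strand of the gene and fold enrichment as bar height, for constitutive genes (left) and the restricted subunit that replaces each (right). PSMB9 and PSMA8 had 0 peaks in this span, PSMB8 had 2 beyond 5 kb downstream, and the PSMB10 peak lay just inside the gene.

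Among the other core subunits, the 7 alpha genes had a median fold enrichment of 11.2 (7.06 to 15.1) and the 7 beta genes one of 12.6, which is the value of PSMB1 from a peak upstream of its TSS. With the PSMB1 peak over the TSS (7.43) the beta median was 9.70, below that of the alpha genes. PSMA1 was the highest alpha gene, at 15.1 (11.9 to 18.9) with 74 fragments, and PSMA4 followed at 14.3 with 68 fragments, its summit 0 bp from a TSS. PSMA3 was the lowest, at 7.06 (5.07 to 9.59) with 39 fragments, so its interval lay below that of PSMA1. PSMB2, a noncatalytic beta subunit, was the second highest beta gene, at 20.3 (17.2 to 23.8) with 152 fragments. PSMB3 was the lowest beta gene, at 7.24 with 40 fragments.

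The regulatory particle was bound throughout. The 6 ATPase genes were close to each other, from 8.63 for PSMC3 to 13.7 for PSMC1, with a median of 9.41, and the interval of PSMC1 (10.5 to 17.6) overlapped that of PSMC3 (6.68 to 11). The 14 non-ATPase genes spread most, with a median of 12.0. PSMD5, which despite its symbol encodes an assembly chaperone of the regulatory particle, had the highest fold enrichment of the 46 genes, 33.0 (28.5 to 38.1), with 186 fragments at chr9:123604575-123605700, above 98.6% of all bound protein-coding genes. PSMD2, a scaffold subunit, had 20.3 (16.5 to 24.8) with 95 fragments, and PSMD14, the deubiquitinase, 15.4 (12.1 to 19.4) with 71. The ubiquitin receptor PSMD4 had 13.8 with 77 fragments. PSMD6, a lid subunit, was the lowest of all bound members at 5.62 (3.68 to 8.25) with 24 fragments, and its interval lay below those of PSMD5, PSMD2, PSMD14 and PSMD4.

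Summit sequences of the strongest peaks outside the catalytic genes are shown in the same format, since these 3 genes stood at places 1, 3 and 4 by fold enrichment.
PSMD5 (chr9:123605221-123605321, minus strand): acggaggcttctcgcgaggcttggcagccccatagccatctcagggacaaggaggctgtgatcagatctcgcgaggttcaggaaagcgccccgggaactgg
PSMB2 (chr1:36107132-36107232, minus strand): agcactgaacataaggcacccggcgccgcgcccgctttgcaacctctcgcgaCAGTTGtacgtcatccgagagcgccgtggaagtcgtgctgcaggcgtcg
PSMD2 (chr3:184016726-184016826, plus strand): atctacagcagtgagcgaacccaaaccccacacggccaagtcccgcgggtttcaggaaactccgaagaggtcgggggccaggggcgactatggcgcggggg
The window of PSMB2 held a MYB site on the minus strand of the gene, and those of PSMD5 and PSMD2 held none of the 9 motifs.

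The activators had a median of 8.99, lower than the medians of the alpha and beta genes, from 5.92 (3.97 to 8.51) for PSME1 to 9.88 for PSME3, and the intervals of all 4 overlapped. PSME1 and PSME2 encode the interferon-induced activator that pairs with the immune core, and unlike PSMB8 and PSMB9 both were bound, PSME1 with 27 fragments and PSME2 with 36. The best peak of PSME2 had its summit 593 bp upstream of the canonical TSS and 32 bp from another. It was shared with RNF31 and the annotated gene ENSG00000259529, so it cannot be assigned to PSME2 alone. A weaker peak of 17 fragments and a fold enrichment of 3.73 had its summit 145 bp downstream of the canonical TSS. The sequence at the summit of the best peak is shown because it was the only one of the 46 with the core of an interferon regulatory factor (IRF) site.
PSME2 (chr14:24616362-24616462, minus strand): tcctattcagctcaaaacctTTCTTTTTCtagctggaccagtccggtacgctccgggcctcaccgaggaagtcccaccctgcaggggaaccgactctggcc
The inhibitor PSMF1 had a fold enrichment of 9.44 with 41 fragments. The 4 chaperone genes of the core ranged from 5.84 (3.86 to 8.52) for PSMG4 to 16.8 (13.3 to 21.1) for PSMG3, and PSMG2 had 113 fragments at 12.1. The 2 genes that matched by symbol only had 9.66 for PSMC3IP and 6.82 for PSME3IP1.

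The order of the genes depended in part on the scale. PSMD7 stood at place 36 by fold enrichment (8.51) and at place 6 by pileup (79 fragments), and PSMG2 at places 17 and 4. These 2 genes had the highest background of the 46, 8.40 fragments, whereas 13 genes sat at the floor of 3.45. PSMD5, PSMB6 and PSMB2 held the first 3 places on both scales.

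Most summits lay close to a TSS. The distance from the summit of the best peak to the nearest annotated TSS had a median of 21 bp, and 38 of the 46 summits (82.6%) were within 100 bp, against a median of 73 bp and 58.6% over all bound protein-coding genes. The share within 100 bp was 93.5% for bound mitochondrial and 88.1% for bound cytoplasmic ribosomal protein genes, so it was not particular to the proteasome. This distance depends on how many TSSs are annotated, with a median of 8.5 per bound proteasome gene and 7 per bound gene overall. For 19 of the 46 proteasome genes the distance was at most 10 bp. Placed on the canonical transcript, 22 summits lay upstream of it, 17 in the 5′ UTR and 7 in a coding exon. Neither the count within 10 bp nor these positions were set beside those of all bound genes. The peaks were 1124.5 bp wide in the median (463 to 2276), against 865 bp over all bound genes.

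**Figure D3:**
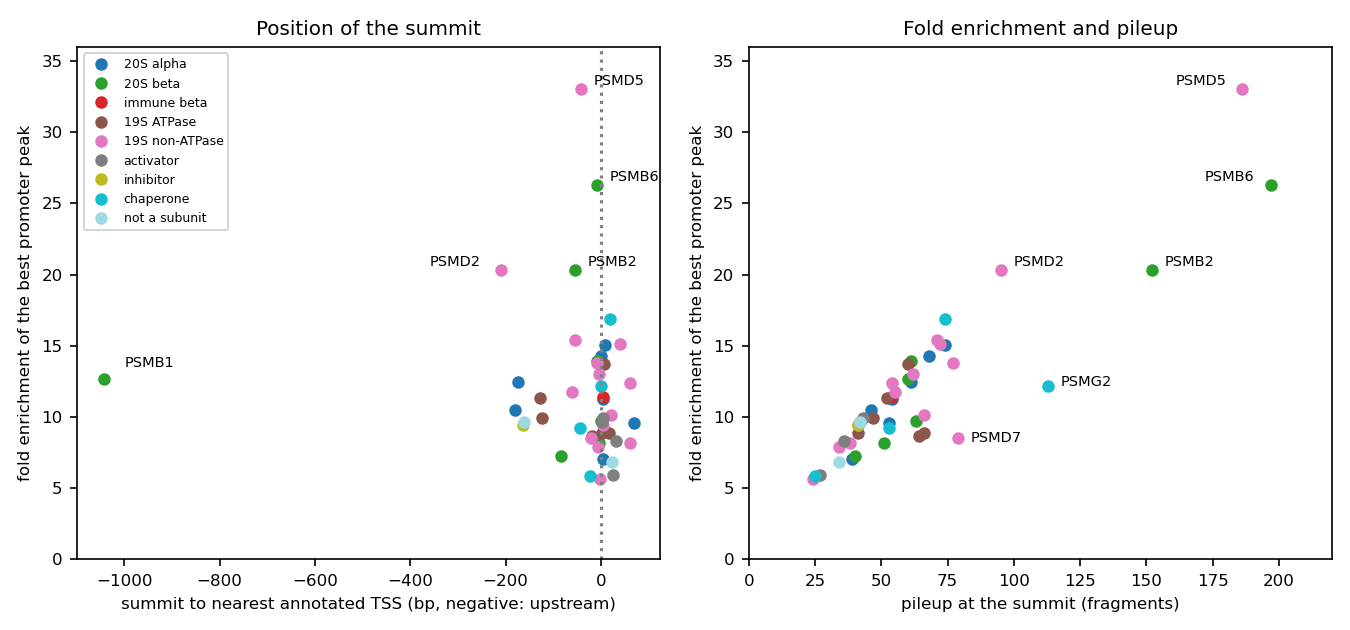
Left, distance in bp from the summit to the nearest annotated TSS against fold enrichment for the 46 bound genes, coloured by class. Right, pileup in fragments against fold enrichment for the same genes. Apart from PSMB1 at −1043 bp and PSMD2 at −210 bp, all 44 other summits were within 200 bp of a TSS, and PSMD7 and PSMG2 lie to the right of the other genes of like fold enrichment.

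For 4 genes the best peak did not cover the canonical TSS. The best peak of PSMB1, with a fold enrichment of 12.6 and 60 fragments, was centred 1043 bp upstream, on the side of the divergent gene TBP, and the peak over the TSS of PSMB1 itself had 7.43 with 48 fragments. PSMC2 had its best peak, 9.92 with 47 fragments, 2852 bp upstream at the promoter of DNAJC2, where an alternative PSMC2 transcript starts, and 6.61 with 43 fragments at the canonical TSS. The other two were PSMB10 and PSME2, described above.

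Several peaks were shared with a neighbour. The best peak of 21 of the 46 genes (45.7%) also lay in the promoter window of another annotated gene, against 49.2% over all bound protein-coding genes, a share near the background. The named partners included the mitochondrial ribosomal gene MRPL32 with PSMA2, the autophagy genes BECN1 with PSME3 and ATG4A with PSMD10, the deacetylase SIRT3 with PSMD13, and CEP76 with PSMG2. For such pairs the peak cannot be assigned to 1 of the genes.

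Beside the best peak, many genes had weaker ones. The 46 genes had 104 promoter peaks in all, and 30 genes (65.2%) had 2 or more, against 46.9% of all bound protein-coding genes. The number depends on how many TSSs are annotated, with a median of 8.5 per bound proteasome gene and 7 per bound gene overall. PSMA3 had the most, 8, and PSMA7 had 6. PSMA3 has 13 annotated start sites, and its 7 weaker peaks (fold enrichment 2.25 to 6.06) were in introns of the canonical transcript.

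Motif letters were sought on both strands within 50 bp of the 46 summits and of the 10178 distinct best summits of all bound protein-coding genes. The motifs were the MYB site (TAACNG or CAACNG), the cell cycle homology region CHR (TTTGAA or TTTAAA), the CCAAT box (CCAAT), the E2F site (TTTCCCGC, TTTGGCGC or TTTCGCGC), the ETS core (CCGGAAG), the NRF1 core (GCATGCGC), the antioxidant element (TGACNNNGC), which is bound by NFE2L1, the known activator of proteasome genes, the IRF core (GAAANNGAA) and the YY1 core (ATGGCGG). None of these letter strings contains another. A match is a description of the letters and not a shown site.

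The MYB site was in 11 of the 46 windows (23.9%), against 17.3% over all bound genes and 7 of 12 late cell cycle genes. The CHR, through which the MYBL2-containing complex is known to reach late cell cycle promoters, was in 0 of the 46 windows, against 5.18% and 7 of 12. The CCAAT box was in 5 windows (10.9%), against 9.72% and again 7 of 12. In number of matches the proteasome summits were thus nearer to all bound genes than to the late cell cycle genes for these 3 motifs.

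The antioxidant element was in 6 windows (13%), against 4.82% over all bound genes and 0 of 12 late cell cycle genes. The 6 genes were PSMB3, PSMB6, PSMC3, PSMC4, PSMD1 and PSME4. The ETS core was in 7 windows (15.2%), against 7.98%, and the YY1 core in 5 (10.9%), against 5.46%. The remaining motifs had 1 or 2 matches each: the NRF1 core in PSMA2 and PSMA4, the E2F site in PSMB3 and the IRF core in PSME2. With so few windows these shares were not tested, and 17 of the 46 windows held none of the 9 motifs. The median fold enrichment was 11.4 (7.06 to 26.3) for the 11 summits with a MYB site and 9.88 (5.62 to 33.0) for the 35 without, ranges that overlap almost fully.

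**Figure D4:**
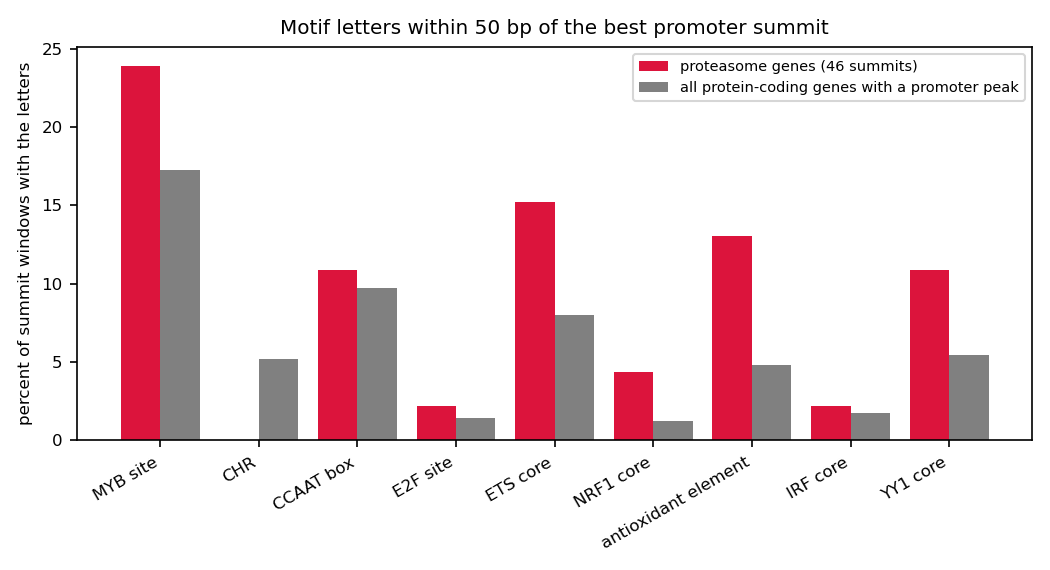
Percent of windows of 50 bp either side of the best promoter summit that hold each motif on either strand, for the 46 bound proteasome genes and for the 10178 distinct best summits of all bound protein-coding genes. The MYB site is in 23.9% against 17.3% and the antioxidant element in 13% against 4.82%, and no proteasome summit holds a CHR.

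Beside other gene lists, the proteasome genes had peaks of middling height. The 12 late cell cycle genes known as MYBL2 targets, among them BIRC5 (37.1), PLK1 (29.6) and CDC20 (27.5), were all bound, with a median fold enrichment of 17.7 and a lowest value of 12.8. The paper picked BIRC5 and AURKB partly because they had promoter peaks in this same ChIP-seq. That these genes were bound was therefore given beforehand, and the list is not independent of these data. Of the 46 proteasome genes 13 reached the lowest late cell cycle value of 12.8. It lay between the 72nd and 74th percentiles of bound proteasome genes and between the 78th and 80th of all bound protein-coding genes. The late cell cycle median was exceeded by 4 proteasome genes, PSMD5, PSMB6, PSMB2 and PSMD2. That median lay between the 90th and 92nd percentiles of both lists, so this count was near the background. Cytoplasmic ribosomal protein genes were bound in 84 of 86 cases with a median of 19.9 and 101 fragments, and mitochondrial ribosomal protein genes in 77 of 78 with 10.8 and 58 fragments, close to the 10.0 and 54 of the proteasome genes. A share of bound genes above 90% was therefore not particular to the proteasome.

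**Figure D5:**
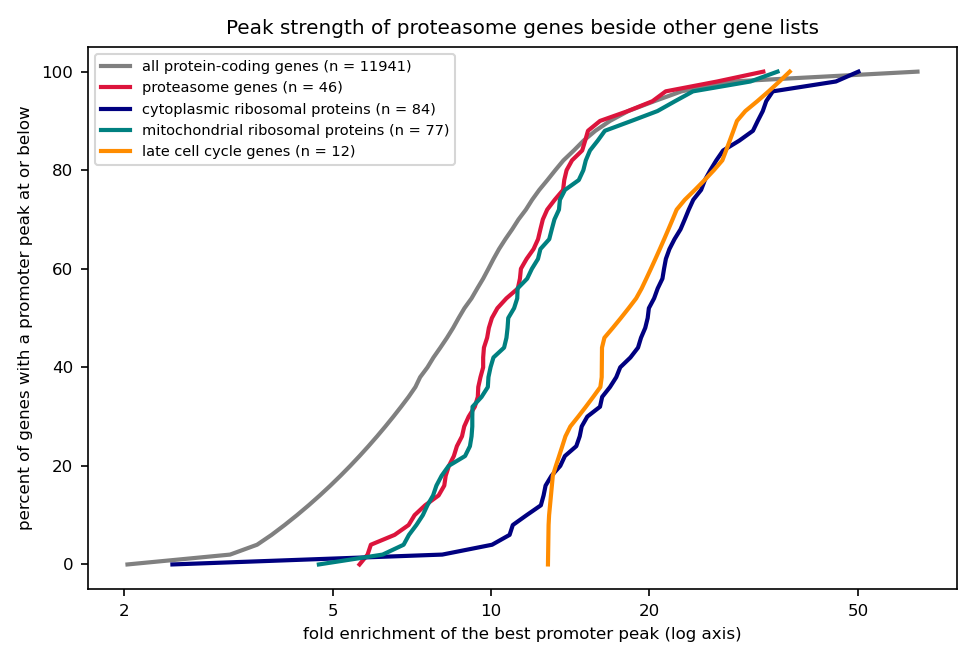
Cumulative percent of bound genes at or below a fold enrichment of the best promoter peak (log axis) for 5 gene lists. The proteasome curve (median 10.0) runs beside that of mitochondrial ribosomal protein genes (10.8), to the right of all bound genes in its lower part, and to the left of the late cell cycle (17.7) and cytoplasmic ribosomal (19.9) curves.

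Genes that work with the proteasome but carry other symbols were bound in 21 of 21 cases, against 59.4% of all protein-coding genes. Of the 21 genes 20 were CpG-rich, and 79.1% of all CpG-rich protein-coding genes were bound. The 21 genes had a median fold enrichment of 12.2 (5.60 to 20.6), against 8.67 over all bound protein-coding genes. They included POMP, which matures the core (8.09), the ubiquitin receptor ADRM1 (11.9), the regulatory subunit SEM1 (12.4), the deubiquitinases USP14 (10.6) and UCHL5 (12.5), and AKIRIN2, which brings proteasomes into the nucleus (17.8). NFE2L1 had a best promoter peak of 9.89 and 55 fragments, and the factors that activate it were bound too, with 14.5 for the protease DDI2, 9.53 for the deglycosylase NGLY1 and 14.3 for the unfoldase VCP.

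Some genes of antigen presentation, the pathway that uses the immune core, were bound and others were not. The peptidase ERAP1 (15.9), B2M (12.6), IRF1 (7.64), TAPBP (5.62) and TAP2 (4.72) had a promoter peak, with the fold enrichment of the best one given in brackets. No listed promoter peak was found for TAP1, CIITA and NLRC5. These are single values of 1 library, and no count over the pathway is given.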

How the data were processed

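MYBL2 ChIP-seq and input of A673 cells (1 library each) were sequenced single-end. Per the submitters' processing notes the authors used Bowtie2 2.1.10, MACS2 2.0.10 and hg19, and per the study's methods they called narrow peaks against the input. A cleaning of the peak list is implied by its name. Of the peak numbers up to 66964, 10 were missing, and why is not given in the sources used here. The deposited list held 66954 peaks on 23 chromosomes with a largest q of 0.0493. Its fold enrichment is a linear ratio to the local background that the authors' caller derived, its −log10 p and −log10 q values come from the same caller, and the deposited score is a scaled −log10 q and was not used.

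Pileups were recovered as the whole number that solves the fold enrichment, (pileup + 1) / (background + 1), and the Poisson p. This succeeded for 66954 peaks. The misfit in −log10 p was at most 3.49e-05, whereas every other whole number missed by 0.038 or more. The lowest background, 3.45 fragments, was held by 20.3% of peaks. The number of fragments limits the precision. The 95% exact Poisson intervals of the pileup were carried to the fold enrichment with the background held fixed. They describe counting error of the ChIP pileup alone, as fragments copied by PCR are not separate molecules. Counting error of the input behind the background is left out. Read totals per library were not used.

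TSSs came from GENCODE 44 lifted to GRCh37, and sequences from the GRCh37 assembly, with positions counted from 1. The best peak of a gene is its promoter peak with the largest fold enrichment. Computation used Python 3.11.15, pandas 2.3.3, scipy 1.17.1 and pysam 0.24.0, and the recovery and overlap code was tested on simulated data. With 1 library a group no test was run, and lists are described by counts and medians beside those of all protein-coding genes. The members, gene lists and motifs were chosen with earlier results of these data known. Every member could be named, and the catalytic, immune and restricted subunits, the 5 highest and 5 lowest members, members with several promoter peaks and members without one were set for description in depth. Alternatives varied the peak threshold, the promoter window, the overlap, the choice of TSS, the ranking and the CpG class. Some genes of the antigen presentation list are not reported here.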

Additional observations from a re-analysis of the deposited data

How the results depend on the processing

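No paired analysis was possible because no result came from a test, with 1 library on each side. Under the alternatives tried (peaks with a −log10 q or a fold enrichment of at least 5, windows reaching 500 bp to each side, or 5000 bp upstream and 1000 bp downstream, the summit or at least 100 bp of the peak in the window, the outermost TSS, CpG-rich genes only and, chosen after seeing the data, the canonical TSS for peaks or for the CpG class), the count of bound proteasome genes was 46 of 50 except with the outermost TSS, which gave 41 and lost PSMA1, PSMA6, PSMC2, PSME3 and PSMF1, and among CpG-rich genes, 40 of 42 by either class. The median fold enrichment of the proteasome genes, for which ranking by the largest −log10 q was tried as well, ranged from 9.70 to 10.0. With peaks of a fold enrichment of at least 5 it was 10.0, while the median over all bound genes rose from 8.67 to 9.66. Of the 3 immune subunits 1 was bound in each of the 8 alternatives that gave a value. The count over all 20098 protein-coding genes ranged from 9970 to 12419, and among CpG-rich genes it was 9491 of 12000 at the outermost and 10459 of 13248 at the canonical TSS. Single genes moved more. PSMB1 fell from 12.6 to 7.43 with the 500 bp window or the summit rule, PSMC2 from 9.92 to 6.61 at the canonical TSS, and PSMG2 from 12.1 to 4.04 with the outermost TSS. PSMG4 went from 5.84 to 9.44 with the 5000 bp window. Depth limits the list to peaks of at least 11 fragments.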

Other observations

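Peaks were not confined to the promoters of the proteasome genes. Counting every peak that touched the gene or a promoter window, the 46 bound genes had a median of 4 peaks each over a median gene length of 17.7 kb, against 2 peaks over 33.6 kb for all bound protein-coding genes. Per 10 kb of gene the medians were 2.68 and 0.83 peaks. The promoter peaks are in these counts, so the ratio is high for a short gene even without a peak elsewhere. PSMB6, with only its promoter peak over 2.36 kb, came to 4.24 per 10 kb. PSMD14, the deubiquitinase, had 29 peaks over 103 kb, PSMB7 had 21 over 62.0 kb, and PSMA3 and PSMB2 had 15 each. At the other end 8 of the 46 genes (17.4%) had only their promoter peak, against 30.3% of all bound protein-coding genes. They included PSMB6 and PSMD2, at places 2 and 4 by fold enrichment, but also PSMB3 and PSME1, at places 41 and 44. Of the genes with most peaks, PSMD14 stood at place 6 and PSMB7 (8.18) at place 38. Gene length, expression and local read depth were not set against these counts by a test.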
